A study of Mus musculus with 8 samples.

Results

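A group of 10 genes that mouse mitochondrial DNA encodes for the respiratory chain was followed through testis RNA-seq libraries of wild-type and Iqch mutant mice. They are mt-Nd1, mt-Nd2, mt-Nd4, mt-Nd5 and mt-Nd6 of complex I, mt-Cytb of complex III, mt-Co1, mt-Co2 and mt-Co3 of complex IV, and mt-Atp6 of ATP synthase (complex V). They were chosen by their measured levels, since the mitochondrial share of reads rises in the mutant, so the difference between genotypes is given here as a description, with no test on these genes. All 10 have a row among the 17127 genes of the expression table. The libraries came from whole adult testis at 4 months of age, 4 from wild-type mice and 3 from Iqch-/- mice (mutants 1, 2 and 4). Mutant 3 is not analysed here, since the expression table has no column for it. The study states that it left out 1 mutant sample as an outlier after normalization, without naming the sample. The mutants are homozygous for a small CRISPR/Cas9 deletion within a late coding exon of Iqch, predicted to leave a shortened IQCH protein, and they stand for 1 edited line. No other allele or treatment is named for either group. By the study's account the testes came from 4 mice of each genotype, so the spread between libraries is a spread between the animals that were kept.

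Mitochondria keep a small circular chromosome whose protein products are all core subunits of the respiratory chain and ATP synthase, and the remaining subunits are made from nuclear genes and imported. Both strands are transcribed into long precursors, which are cut at the tRNAs between the genes, and most of the mRNAs receive a short poly(A) tail inside the organelle. Stability factors and the polymerase loading machinery, encoded in the nucleus, act on these transcripts after or during that process. In the testis, spermatogenic cells change their mitochondria as they mature, and sperm carry them in the midpiece.

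In the GRCm39 assembly with GENCODE vM39, each of the 10 genes is an intronless protein-coding gene on the mitochondrial chromosome of 16299 bases. The plus strand carries 9 of them: mt-Nd1 (chrM:2751-3707), mt-Nd2 (chrM:3914-4951), mt-Co1 (chrM:5328-6872), mt-Co2 (chrM:7013-7696), mt-Atp6 (chrM:7927-8607), mt-Co3 (chrM:8607-9390), mt-Nd4 (chrM:10167-11544), mt-Nd5 (chrM:11742-13565) and mt-Cytb (chrM:14145-15288). The exception is mt-Nd6 (chrM:13552-14070), which is read from the minus strand. Its coding strand held 28.1% G and 5.97% C, whereas the other members held between 8.0% and 16.1% G and between 23.8% and 27.7% C. The first bases of mt-Co1 and mt-Nd6 are shown because they are the member with the highest level and the member of the opposite strand, with the start codon in capitals:
mt-Co1: ATGttcattaatcgttgattattctcaacc
mt-Nd6: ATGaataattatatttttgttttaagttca
The genes are packed so closely that some share bases. The last base of mt-Atp6 is the first of mt-Co3, and the stretch around it on the plus strand (chrM:8593-8622) is shown with the stop codon of mt-Atp6 and the start codon of mt-Co3, which run into each other, in capitals:
mt-Atp6 and mt-Co3: catgataatacaTAATGacccaccaaactc
Further, mt-Atp8 and mt-Atp6 share 43 bases, mt-Nd4l and mt-Nd4 share 7, and mt-Nd5 and mt-Nd6 share 14 on opposite strands. How the counting treated reads in shared bases, and whether it used strand, is not given in the sources used here. Reads from the shared stretches therefore cannot be assigned to 1 gene from these values. If strand was not used, RNA of the opposite strand would count for a gene over its whole length. The levels given below for mt-Nd6 and the minus-strand tRNA rows may therefore include RNA of the plus strand.

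The nuclear genome holds copies of parts of this chromosome, and they bear on how the levels below can be read. The longest is on chromosome 1 (chr1:24650616-24655269, minus strand), where 4654 aligned bases matched chrM:6390-11042 at 99.936% identity, with 2 mismatches and 1 gap. This copy spans the end of mt-Co1, all of mt-Co2, mt-Atp8, mt-Atp6, mt-Co3, mt-Nd3 and mt-Nd4l, and the start of mt-Nd4. Both mismatches are shown because, beside the gap, they are all that could tell apart reads lying wholly within the aligned stretch. The differing base is in capitals, each sequence is written along the plus strand of chrM, and a substitution names the chrM base, its chrM position and then the base of the copy. A6393T lies in mt-Co1 (chrM:6390-6405) and T9461C lies in mt-Nd3 (chrM:9449-9473):
mt-Co1, mitochondrial: ggaAttgttttatcca
mt-Co1, chromosome 1 copy: ggaTttgttttatcca
mt-Nd3, mitochondrial: gaagagagtaatTaacctgtacact
mt-Nd3, chromosome 1 copy: gaagagagtaatCaacctgtacact
Another copy on chromosome 2 (chr2:22477300-22480546) matched chrM:4441-7699 at 97.362% identity, and a further copy on chromosome 4 (chr4:79920567-79923441) matched chrM:12488-15359 at 93.009%. Of 10 copies with at least 200 aligned bases and 90% identity, 3 were longer than 1000 bases. For each gene, the percentage of its 100-base windows found letter for letter in a nuclear chromosome was computed. It was 100% for mt-Co2, mt-Atp6 and mt-Co3, 60.8% for mt-Nd4, 30.8% for mt-Co1 and 3.19% for mt-Nd2. No such window was found for mt-Nd1, mt-Nd5, mt-Nd6 or mt-Cytb.

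The 10 mRNAs together were more abundant in the mutant testis. They took 0.719%, 0.692%, 0.771% and 0.688% of all counted reads in wild type 1 to 4, and 1.08%, 1.25% and 1.12% in mutants 1, 2 and 4. The means were 0.717% ± 0.038 (SD, n = 4) and 1.15% ± 0.090 (SD, n = 3), a ratio of 1.60, and no mutant library reached down to a wild-type one. Levels are in CPM, the reads of a gene per 1000000 counted reads of its library. In a bulk sample such as whole testis, fewer cells of a type and less RNA per cell cannot be told apart, and the same holds for more of either.

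Taken one by one, 10 of the 10 genes had each mutant library above each wild-type library. The same held for 42.8% of the 17126 genes tested, and since the 10 were chosen for this difference nothing is read from their count.

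**Figure D1:**
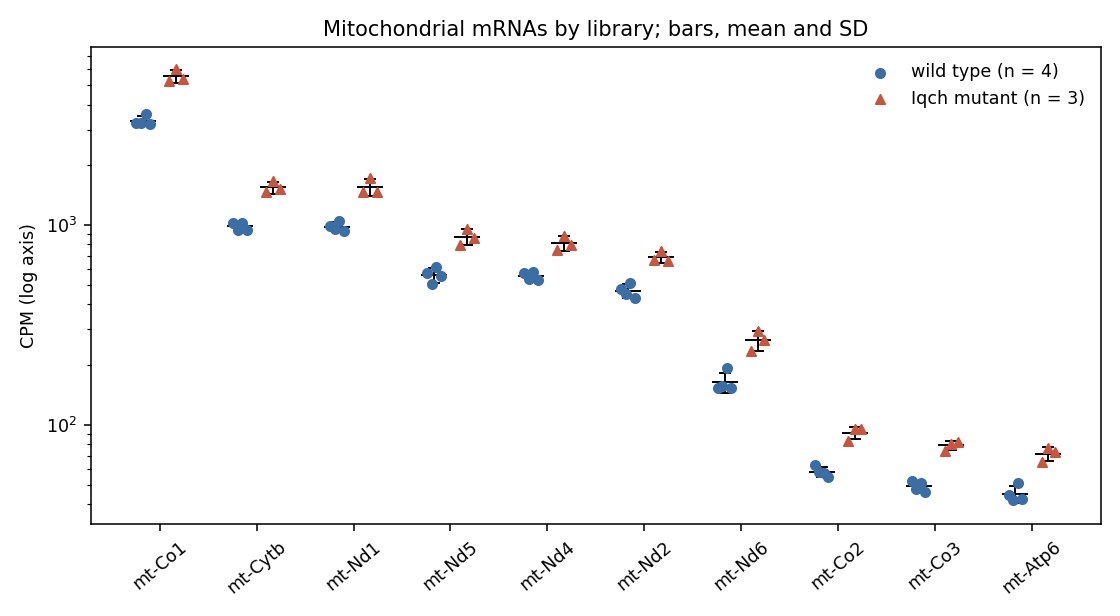
CPM of the 10 mitochondrial mRNAs in each library on a log axis, with circles for the 4 wild-type libraries, triangles for the 3 mutant libraries, and bars for the mean and SD. For each of the 10 genes the 3 triangles sit above the 4 circles, and the levels run from 42.0 CPM of mt-Atp6 in wild type 2 to 6019 CPM of mt-Co1 in mutant 2.

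The complex IV genes encode the catalytic core of cytochrome c oxidase, which passes electrons to oxygen. The level of mt-Co1, the haem-bearing subunit, was 3249.8, 3222, 3575 and 3199.6 CPM in wild type 1 to 4 and 5215, 6019 and 5374 CPM in mutants 1, 2 and 4. It had the largest fitted change of the 10, with a log2 fold change of 0.74 (SE 0.05), and the lowest mutant stood well clear of wild type 3, the highest of its group. The level of mt-Co2, which takes electrons from cytochrome c, was 63.0, 58.0, 57.5 and 55.0 CPM in the wild type and 83.5, 95.5 and 95.0 CPM in the mutants. For mt-Co3 the levels were 52.4, 47.7, 51.4 and 46.2 CPM in the wild type and 74.3, 79.9 and 82.5 CPM in the mutants. The groups did not overlap for either gene, and their log2 fold changes were 0.64 (SE 0.06) and 0.67 (SE 0.06).

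The complex I genes encode membrane subunits of NADH dehydrogenase. The level of mt-Nd1 was 983, 953, 1049.9 and 927 CPM in wild type 1 to 4 and 1466, 1714 and 1453 CPM in the mutants, a log2 fold change of 0.66 (SE 0.06). For mt-Nd2 the levels were 475, 450.5, 515 and 431 CPM in the wild type and 666, 743 and 663 CPM in the mutants, a log2 fold change of 0.56 (SE 0.06). For mt-Nd4 they were 573, 536, 578 and 531 CPM in the wild type and 748, 881 and 796 CPM in the mutants. The log2 fold change of mt-Nd4, 0.54 (SE 0.05), was the smallest of the 10. The level of mt-Nd5 was 573, 504, 618 and 553 CPM in the wild type and 798, 959 and 864 CPM in the mutants, a log2 fold change of 0.64 (SE 0.07). The minus-strand gene mt-Nd6 stood at 153, 157, 192 and 153 CPM in the wild type and at 234, 294 and 266 CPM in the mutants, a log2 fold change of 0.69 (SE 0.09). None of the 5 had a mutant library at or below a wild-type one, and wild type 3 was the highest wild-type library for each of them.

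For mt-Cytb, the cytochrome b of complex III, the levels were 1023, 945, 1019.5 and 943 CPM in the wild type and 1456, 1661 and 1508 CPM in the mutants, a log2 fold change of 0.65 (SE 0.05). The level of mt-Atp6, part of the proton channel of ATP synthase, was 44.5, 42.0, 51.4 and 42.8 CPM in the wild type and 65.2, 76.8 and 73.4 CPM in the mutants, a log2 fold change of 0.67 (SE 0.08). For both genes the lowest mutant was mutant 1, and it stood above the highest wild-type library.

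The members differed little in the size of the change. Their median log2 fold change was 0.65 where the median of all tested genes was 0.12, and the range among members was 0.54 to 0.74. After median-of-ratios scaling, which centres the median of all genes at -0.01, the members' range was 0.41 to 0.60 with a median of 0.52. A log2 change above that of mt-Nd4 was reached by 22.1% of all tested genes. By complex, the ratio of mean sums was 1.53 for the 5 genes of complex I and 1.67 for the 3 of complex IV. The complex IV sum was mostly mt-Co1 (3312 of 3419 CPM in the wild type), while mt-Co2 and mt-Co3 had ratios of 1.56 and 1.60. Among the complex I genes the ratio of means ran from 1.46 for mt-Nd4 to 1.62 for mt-Nd6. The ratio of the lowest mutant to the highest wild-type library was between 1.22 and 1.46 across members. Within a group the libraries kept a common order: wild type 3 was the highest wild type for 7 members, wild type 4 the lowest for 7, mutant 2 the highest mutant for 9 and mutant 1 the lowest for 8. The coefficient of variation between libraries was 4.46% to 11.6% in the wild type and 5.32% to 11.4% in the mutants. Counting error was smaller than this, since the fewest reads behind a member's value were 1443 (mt-Atp6 in wild type 2), for which counting error alone is 2.63%, when the smallest step of each column is taken as 1 read.

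Per length, the members ranged over more than an order of magnitude. In the wild type the level in CPM per kilobase was 2143 ± 114 for mt-Co1, 1022 ± 55.2 for mt-Nd1, 859 ± 39.0 for mt-Cytb, 451 ± 34.9 for mt-Nd2 and 402 ± 17.9 for mt-Nd4 (SD, n = 4). Lower in the order stood mt-Nd6 at 315 ± 36.4, mt-Nd5 at 308 ± 25.9, mt-Co2 at 85.3 ± 4.92, mt-Atp6 at 66.4 ± 6.29 and mt-Co3 at 63.0 ± 3.78 CPM per kilobase. In this order the ranges over libraries overlapped for 3 neighbouring pairs, namely mt-Nd2 and mt-Nd4, mt-Nd6 and mt-Nd5, and mt-Atp6 and mt-Co3. Within single wild-type libraries, mt-Nd2 stood above mt-Nd4 in 4 of 4, mt-Nd6 above mt-Nd5 in 2 of 4 and mt-Atp6 above mt-Co3 in 3 of 4. The mutants had the same order, from 3583 ± 275 CPM per kilobase for mt-Co1 to 101 ± 5.36 for mt-Co3 (SD, n = 3), and there the ranges of mt-Nd4 and mt-Nd6 overlapped as well, though each neighbouring pair kept this order in 3 of 3 mutant libraries.

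**Figure D2:**
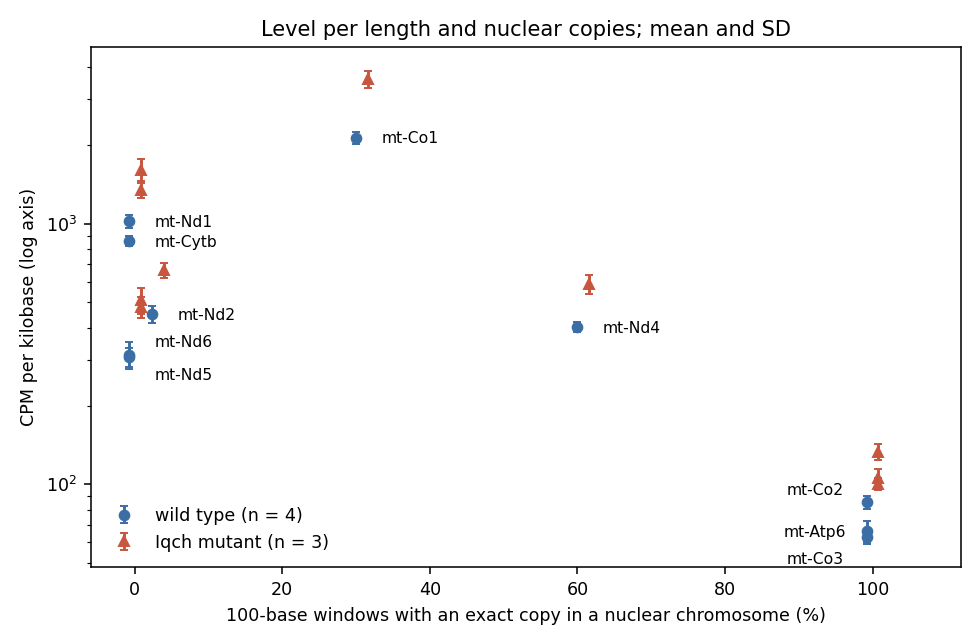
Level in CPM per kilobase (log axis, mean and SD) of the 10 mRNAs against the percentage of their 100-base windows that have an exact copy in a nuclear chromosome, with circles for wild type and triangles for mutant, drawn slightly apart. The 3 genes at 100%, mt-Co2, mt-Atp6 and mt-Co3, are the 3 with the lowest level, at 63.0 to 85.3 CPM per kilobase in the wild type.

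The 3 members at the bottom of the order were those copied over their whole length. Annotated pseudogenes of the chromosome 1 copy had rows of their own with levels close to theirs. Gm28661, the copy of mt-Co2, stood at 51.8 ± 0.942 CPM in the wild type and 82.3 ± 8.13 CPM in the mutants. Atp6-ps, the copy of mt-Atp6, stood at 54.7 ± 1.50 and 83.4 ± 5.75 CPM, and Gm28437, the copy of mt-Co3, at 44.0 ± 2.79 and 73.4 ± 4.00 CPM. Of the reads that mt-Co2 and Gm28661 had together, mt-Co2 held 53.0% ± 1.20 in the wild type and 52.6% ± 2.95 in the mutants. Over the 7 libraries this share ran from 50.6% to 56.0% for mt-Co2, from 43.7% to 48.6% for mt-Atp6 and from 50.7% to 56.7% for mt-Co3. Where the copy covers part of a gene, the member held nearly all reads of the pair, 97.4% to 97.7% for mt-Nd4 with Gm28439 and 98.2% to 98.6% for mt-Co1 with Gm29216. How reads that match both places equally well were treated by the aligner and the counter is not given in the sources used here. The levels of mt-Co2, mt-Atp6 and mt-Co3 are therefore uncertain as levels of mitochondrial RNA, and the part of the copies in the order above was not tested. If the counted reads of mt-Co1 all lay in the 1062 bases outside the chromosome 1 copy, its wild-type level would be 3118 ± 167 CPM per kilobase, and that of mt-Nd4, over its 502 bases outside, would be 1104 ± 49.2.

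The difference between genotypes was similar with and without the copied genes. The sum of the 4 members with no copied window (mt-Nd1, mt-Nd5, mt-Nd6 and mt-Cytb) went from 2687 ± 149.9 to 4224 ± 357 CPM, a ratio of 1.57. The sum of the 3 fully copied members went from 153 ± 8.39 to 242 ± 16.5 CPM, a ratio of 1.58. The 7 rows of the chromosome 1 copy summed to 237 ± 3.72 CPM in the wild type and 370.1 ± 18.7 CPM in the mutants, a ratio of 1.56. Of 9 pseudogene rows on chromosomes 1 and 2, 8 had each mutant library above each wild-type library (42.8% of all tested genes did). The exception was Gm10222, the copy of mt-Nd4l, at 9.11 ± 1.27 and 9.99 ± 0.912 CPM. These rows share sequence with the mitochondrial genes, so their count is not independent of the members.

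**Figure D3:**
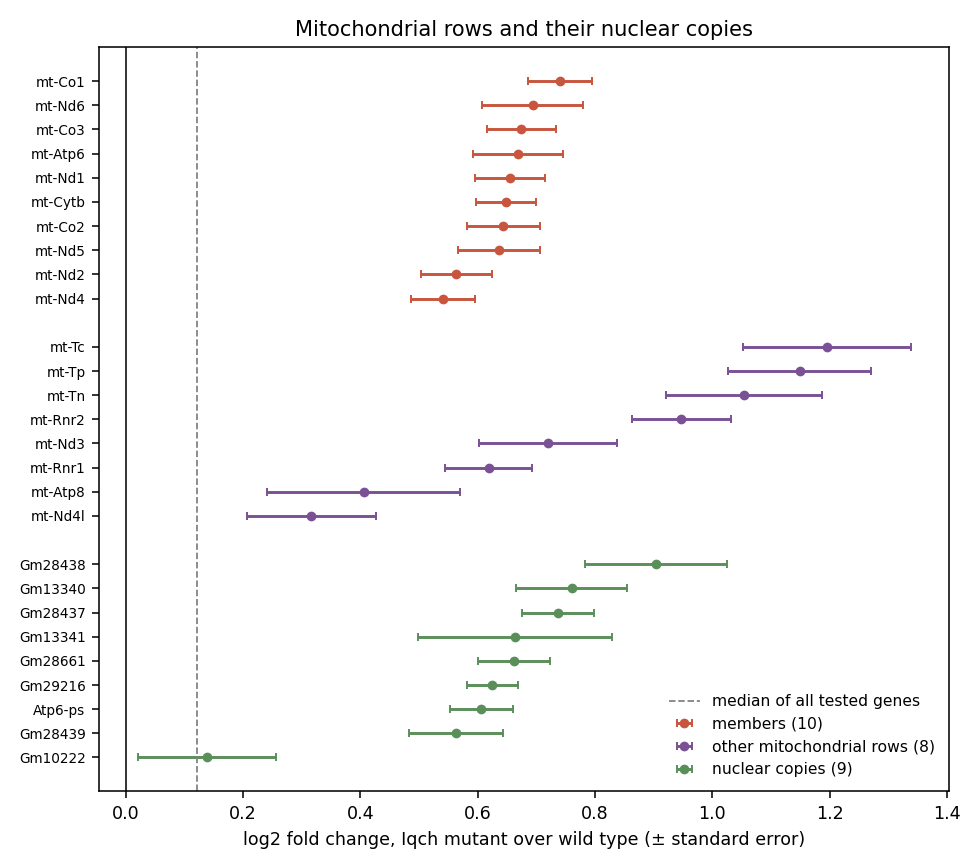
Fitted log2 fold change of mutant over wild type with its standard error for the 10 members, the 8 other rows of the mitochondrial chromosome and the 9 rows of nuclear copies, with a dashed line at the median of all tested genes, 0.12. The members lie between 0.54 and 0.74, the tRNA rows and mt-Rnr2 lie above them, and mt-Atp8, mt-Nd4l and Gm10222 lie below them.

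The other 8 rows of the mitochondrial chromosome showed a wider spread. The rRNA of the small ribosomal subunit, mt-Rnr1, went from 73.9 ± 4.89 to 114 ± 13.4 CPM (log2 fold change 0.62, SE 0.07), and that of the large subunit, mt-Rnr2, from 77.2 ± 3.21 to 150.3 ± 24.8 CPM (0.95, SE 0.08). The tRNA rows mt-Tn, mt-Tc and mt-Tp, all on the minus strand and at 4.34, 5.47 and 7.03 CPM in the wild type, had log2 fold changes of 1.05 (SE 0.13), 1.20 (SE 0.14) and 1.15 (SE 0.12). The complex I mRNA mt-Nd3 had a log2 fold change of 0.72 (SE 0.12). For mt-Atp8, at 2.78 ± 0.596 and 3.65 ± 0.132 CPM, and mt-Nd4l, at 8.78 ± 1.16 and 10.9 ± 0.797 CPM, the groups overlapped. Of the 18 rows of this chromosome, 16 had each mutant library above each wild-type library (42.8% of all tested genes did). The 16 include the 10 members, which were chosen for this difference, so nothing is read from that count.

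Within the pool of the 10 mRNAs the composition moved slightly. The share of mt-Co1 was 45.2%, 46.6%, 46.4% and 46.5% of the pool's reads in wild type 1 to 4 and 48.3%, 48.1% and 48.1% in the mutants, a difference of 1.97 percentage points. The share of mt-Nd4 was 7.97%, 7.75%, 7.50% and 7.71% in the wild type and 6.92%, 7.03% and 7.12% in the mutants. The share of mt-Nd2 was 6.61%, 6.51%, 6.68% and 6.26% in the wild type and 6.16%, 5.93% and 5.94% in the mutants. So mt-Co1 took a larger part of the pool in each mutant library, and mt-Nd4 and mt-Nd2 a smaller one. For the other 7 members the groups overlapped, among them mt-Nd1 at 13.6% and 13.4% and mt-Nd6 at 2.27% and 2.30% of the pool. These shares come from the contrast by which the genes were chosen, so no test is given.

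**Figure D4:**
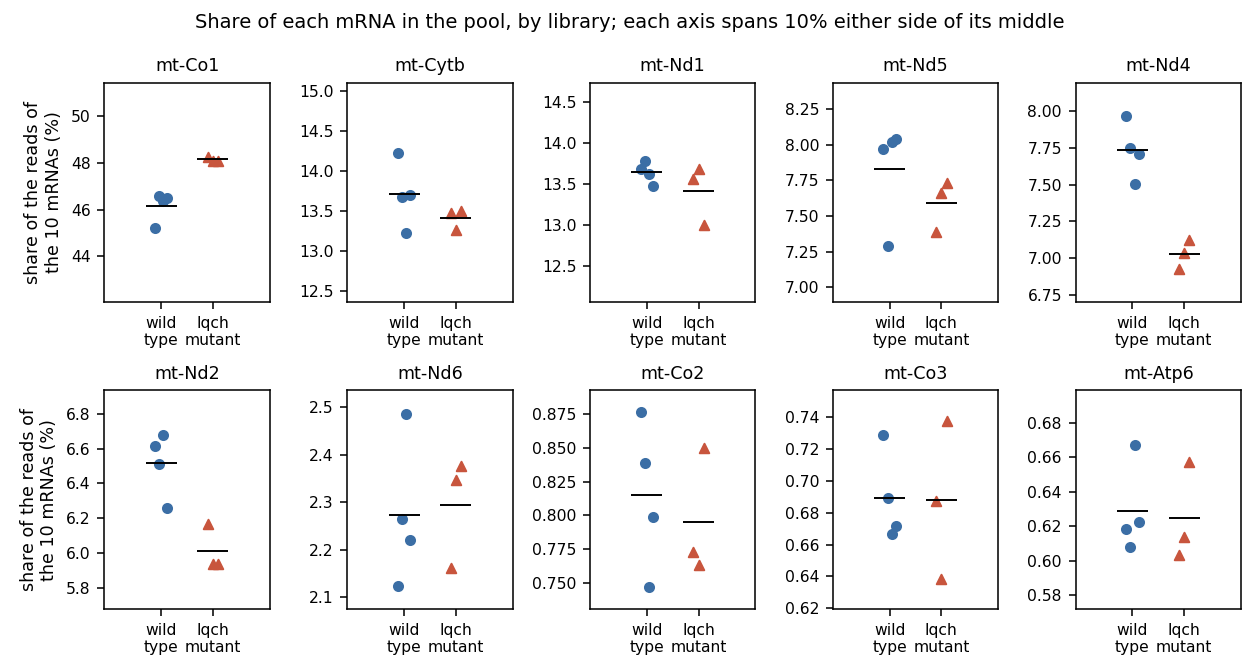
Share of each mRNA in the reads of the 10 mRNAs (%), by library, with circles for wild type, triangles for mutant and a line at each mean; each vertical axis spans 10% on either side of its middle. The groups are apart for mt-Co1 (46.2% and 48.1% on average), mt-Nd4 (7.73% and 7.03%) and mt-Nd2 (6.52% and 6.01%), and overlap for the other 7.

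The nuclear genes of the same complexes were examined next, by limma on log2(CPM + 0.1) over all 17126 tested genes with Benjamini-Hochberg adjustment and a false discovery rate (FDR) of 0.01. By this rule 36.3% of all tested genes were higher and 14.2% lower in the mutants. Of 82 nuclear subunit genes tested, 34 rose, 5 fell and 43 passed in neither direction, and their median log2 fold change was 0.14, close to the 0.12 of all genes. After median-of-ratios scaling 17 rose and 18 fell, with a median of 0.01. Without mutant 2, 2 of the 82 fell. The summed level of the 82 genes was 6662 to 6952 CPM in the wild type and 7272 to 7382 CPM in the mutants.

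Complex by complex, the nuclear genes varied widely around that median. In complex I 10 of 36 rose (27.8%, where 36.3% of all tested genes did) and 1 fell (2.78%, where 14.2% did). After median-of-ratios scaling 4 rose and 9 fell. Ndufb11 went from 10.8 ± 0.734 to 27.0 ± 1.59 CPM (log2 1.31, SE 0.08, limma FDR 3e-08) and Ndufa1 from 21.4 ± 1.57 to 38.3 ± 1.01 CPM (log2 0.84, SE 0.07, FDR 4.1e-07), while Ndufa7 fell by 0.21 on the log2 scale (SE 0.05, limma FDR 0.0037). All 4 subunits of complex II, which has no mitochondrially encoded part, rose (2 of 4 after that scaling), with Sdhc at 0.57 (SE 0.07) and the flavoprotein Sdha at 0.39 (SE 0.04). In complex III 4 of 9 rose (2 after that scaling), led by cytochrome c1 (Cyc1) at 0.52 (SE 0.05) and Uqcr11 at 0.45 (SE 0.07), and 1 fell, Uqcrq, by 0.17 (SE 0.04). Without mutant 2 the calls of Ndufa7 and Uqcrq were lost, and that of Ndufa7 was lost without wild type 1, wild type 2 or mutant 4 as well.

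In complex IV 6 of 15 nuclear genes rose and 2 fell, and after median-of-ratios scaling 6 rose and 5 fell. Cox7b went from 6.89 ± 0.768 to 18.6 ± 1.73 CPM (log2 1.42, SE 0.10, limma FDR 1.5e-07) and Ndufa4 from 15.9 ± 0.451 to 33.0 ± 0.432 CPM (log2 1.05, SE 0.06, FDR 2.4e-08). Cox8c, an isoform of subunit VIII known from testis, and Cox7a2 each fell by 0.22 (SE 0.04). In ATP synthase 9 of 16 rose (56.25%) and none passed in the other direction, whereas after that scaling 3 rose and 2 fell. The largest increase among them was that of the c-ring gene Atp5mc3, from 54.4 ± 1.87 to 94.6 ± 1.18 CPM (log2 0.80, SE 0.05, limma FDR 2.7e-08). Of the paired cytochrome c genes, the somatic Cycs rose by 0.47 (SE 0.13, limma FDR 0.0062) and the germ cell form Cyct fell by 0.22 (SE 0.05, limma FDR 0.002). Both calls were lost without mutant 1 or without mutant 2, and that of Cycs also without wild type 1, 2 or 4 and under median-of-ratios scaling. The medians of complexes I, III and IV were 0.10, 0.13 and 0.07, and under median-of-ratios scaling they turned to -0.03, -0.01 and -0.06.

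**Figure D5:**
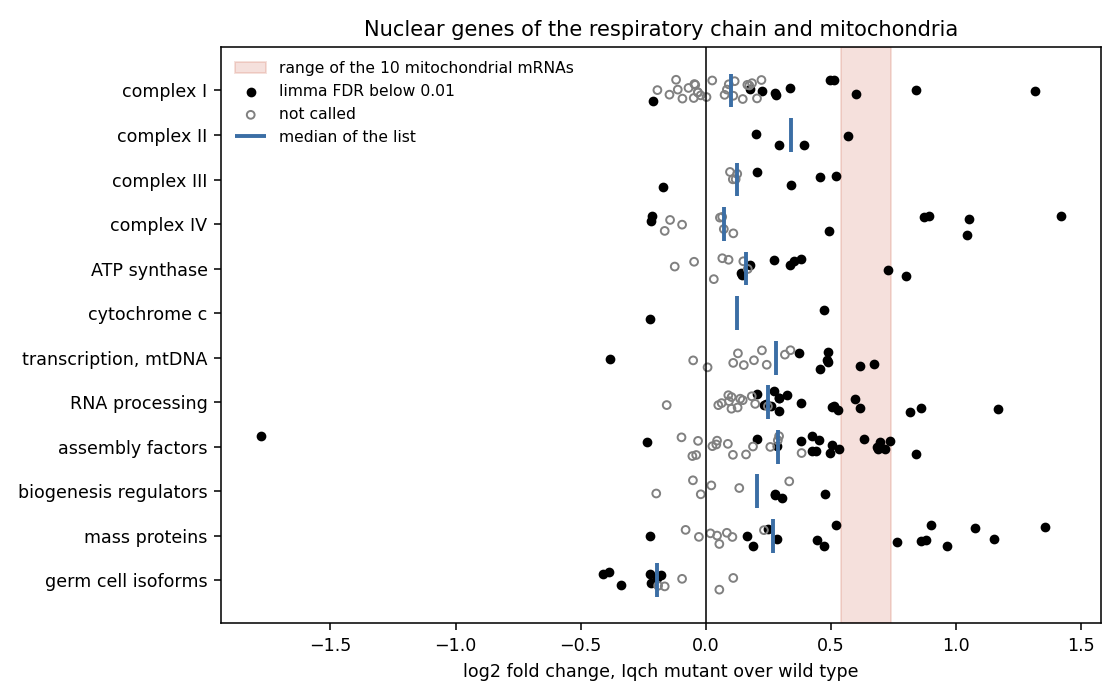
Log2 fold change of mutant over wild type for nuclear genes of the respiratory chain complexes and of mitochondrial functions, 1 point a gene, filled where limma gave an FDR below 0.01, with the median of each list as a line and the range of the 10 mitochondrial mRNAs, 0.54 to 0.74, as a shaded band. Each list median lies below the band, the highest being 0.34 for complex II and the lowest -0.19 for the germ cell isoforms.

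Among genes that copy, transcribe and process the mitochondrial chromosome, more rose than fell in CPM, though the named regulators differed. Of 18 tested genes of transcription and DNA maintenance, 7 rose (38.9%) and 1 fell (5.56%), where 36.3% and 14.2% of all tested genes did. Their median was 0.28, and after median-of-ratios scaling 2 rose and 2 fell. The mitochondrial RNA polymerase Polrmt had a level of 27.9 ± 1.34 CPM in the wild type and 30.5 ± 0.792 CPM in the mutants (limma FDR 0.078), and the elongation factor Tefm was at 4.71 ± 0.609 and 5.06 ± 0.186 CPM (limma FDR 0.47). Tfam, which packages the chromosome and helps start its transcription, fell (log2 fold change -0.38, SE 0.07, limma FDR 0.00027), its wild-type libraries averaging 205 ± 19.0 CPM and its mutant libraries 157 ± 9.32 CPM. The rRNA methyltransferase gene Tfb1m and the exonuclease gene Mgme1 rose, by 0.62 (SE 0.14) and 0.67 (SE 0.12).

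Of 31 tested genes of mitochondrial RNA processing and stability, 18 rose and none passed in the other direction, with a median of 0.25, and after median-of-ratios scaling 7 rose and 1 fell. Lrpprc, which stabilises mitochondrial mRNAs, rose from 47.9 ± 2.24 to 57.8 ± 1.36 CPM (log2 0.27, SE 0.05, limma FDR 0.00061), and its partner Slirp was at 23.7 ± 1.80 and 21.3 ± 1.69 CPM (limma FDR 0.096). The degradosome genes Supv3l1 and Pnpt1 rose by 0.29 (SE 0.06, limma FDR 0.0011) and 0.23 (SE 0.07, limma FDR 0.0099). The poly(A) polymerase Mtpap was at 17.5 ± 1.64 and 19.1 ± 1.07 CPM (limma FDR 0.2). Hsd17b10, a subunit of mitochondrial RNase P, went from 9.78 ± 0.672 to 22.1 ± 1.21 CPM (log2 1.17, SE 0.08, limma FDR 9.8e-08), and the rRNA methyltransferase gene Mrm2 rose by 0.86 (SE 0.19). Over both lists, 25 of 49 rose (51.0%, where 36.3% of all tested genes did) and 1 fell (2.04%, where 14.2% did). Under median-of-ratios scaling 9 rose and 3 fell. Without mutant 2, 14 of the 49 rose. The calls of Lrpprc, Supv3l1 and Pnpt1 were lost under median-of-ratios scaling, that of Mrm2 without mutant 2, and that of Pnpt1 in 6 of the 7 refits that left out 1 library.

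Among 34 tested assembly factors and translation activators, 17 rose and 2 fell (13 and 2 after median-of-ratios scaling). Surf1 and Sco1, which help build complex IV, rose by 0.84 (SE 0.07) and 0.73 (SE 0.11). Ndufaf3, an assembly factor of complex I, had the largest change of the nuclear mitochondrial genes named here, from 762 ± 35.5 CPM in the wild type to 222 ± 8.95 CPM in the mutants (log2 fold change -1.78, SE 0.05, limma FDR 6.4e-11). Its exons overlap those of Impdh2 and 4833445I07Rik on the opposite strand, which stood at 11.4 and 7.39 CPM in the wild type. Uqcc2, which assists complex III, fell by 0.23 (SE 0.04). Exons of Ndufb11, Cs, Gabpa, Surf1, Sco1, Slirp, Sdha, Uqcc2, Uqcrq, Mgme1, Mrm2, Pprc1, Supv3l1, Atp5mg, Tfb1m and Vdac2 also overlap another gene of the table, so reads from the shared bases cannot be told apart.

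Genes of mitochondrial membrane, matrix and import proteins, taken as measures of mitochondrial amount, rose more often than they fell. Of 24 tested, 15 rose (62.5%, where 36.3% of all tested genes did) and 1 fell (4.17%, where 14.2% did). Their median was 0.27, and after median-of-ratios scaling 11 rose and 3 fell. Citrate synthase (Cs) rose by 0.19 (SE 0.05, limma FDR 0.0072) and the porin gene Vdac1 by 1.15 (SE 0.06), from 27.3 ± 1.59 to 60.8 ± 2.00 CPM, while the more abundant Vdac2 fell from 461 ± 16.9 to 395 ± 12.2 CPM (log2 -0.22, SE 0.04, limma FDR 0.00042). Pdha1, the somatic pyruvate dehydrogenase subunit, rose from 4.98 ± 0.643 to 12.8 ± 0.339 CPM (log2 1.35, SE 0.11). Of 10 regulators of biogenesis 4 rose (after that scaling 1 rose and 1 fell), among them Pprc1 at 0.48 (SE 0.07) and Gabpa at 0.30 (SE 0.07), and Ppargc1a was at 2.50 ± 0.354 and 2.51 ± 0.685 CPM (limma FDR 0.94). Of 12 genes listed as germ cell forms for mitochondria none rose and 7 fell (58.3%, where 14.2% of all tested genes did). Their median was -0.19, and after that scaling 10 fell. Under median-of-ratios scaling the calls of Cs and Gabpa were lost, and without 1 library that of Cs was lost in 6 of 7 refits and that of Gabpa without mutant 2. The germ cell list includes Spata19, a sperm mitochondrial protein, at -0.41 (SE 0.06). It also includes Hspa1l, a heat shock gene that the study counts among its spermatid markers, at -0.39 (SE 0.06).

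Markers of several cell types moved with the genotypes too, where 36.3% of all tested genes rose and 14.2% fell by the same rule. The summed level of 6 spermatid markers was 18614 to 19757 CPM in the wild type and 11667 to 13544 CPM in the mutants, and 5 of the 6 fell. The 6 Leydig cell markers summed to 997 to 1202 CPM in the wild type and 4214 to 4393 CPM in the mutants (5 of 6 rose), the 6 Sertoli cell markers to 156 to 166 and 280.0 to 307 CPM (6 rose), and the 6 macrophage markers to 57.0 to 63.2 and 140.03 to 159.9 CPM (6 rose). Of 6 spermatocyte markers 1 rose, of 6 spermatogonial markers 4 rose, of 5 peritubular myoid markers 1 rose and 1 fell, of 5 endothelial markers 2 rose, and of 4 erythroid markers none passed in either direction. After median-of-ratios scaling 6 spermatid markers fell, 3 spermatocyte markers fell and none rose, 1 spermatogonial marker rose, 4 Sertoli markers rose, and 1 endothelial marker fell beside the 2 that rose. The counts of called Leydig, macrophage, myoid and erythroid markers and of the nuclear RNAs and histone genes described next were equal under both scalings. None of 5 epididymis markers had a row in the table. Germ cell markers of each class were present in each library, as the label of adult testis has it. A list of 6 long non-coding RNAs, most of them kept in the nucleus, Meg3 and Snhg11 included, summed to 334 to 410.2 CPM in the wild type and to 758, 965 and 1289.6 CPM in mutants 1, 2 and 4, and 5 of the 6 rose. Of 16 transcripts listed for lacking poly(A) tails, the only ones with a row were the histone genes H2bc4 and H1f2. Both rose, by 1.40 (SE 0.08) and 1.65 (SE 0.09). Whether their RNA lacked tails in this tissue was not tested, and they cannot stand for the rest of that list. Among the mutants, mutant 2, the highest for the mitochondrial mRNAs, was highest for the Sertoli, macrophage, spermatocyte and erythroid sums as well. Mutant 1 was highest for the spermatid, Leydig and peritubular myoid sums, and mutant 4 for the spermatogonial, endothelial and nuclear RNA sums. With so few libraries, nothing is read from this order. The part of cell composition, RNA quality or library selection in the higher level of the mitochondrial mRNAs was not tested.

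The targeted gene was lower in the libraries labelled mutant, with Iqch at 208 ± 11.3 CPM in the wild type and 67.3 ± 2.25 CPM in the mutants (log2 fold change -1.63, SE 0.05, limma FDR 1.9e-10). Depth was alike in both groups, with 32859673 to 37551057 counted reads in the wild type and 32064384 to 34806129 in the mutants when the smallest step of each column is taken as 1 read.

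The nuclear genes whose profile over the 7 libraries was most like the mean of the 10 mRNAs were found among 11157 genes with at least 10 CPM on average. The measure was the root mean square difference of log2 profiles, each centred on its own mean. Dusp11 was the nearest at 0.0282, at 33.7 ± 2.84 CPM in the wild type and 53.2 ± 3.67 CPM in the mutants, followed by Khdc4 at 0.0289, Tmem161a at 0.0319, Abcc5 at 0.0326 and Pwwp3b at 0.0350. The members' own distances from their mean were 0.0279 to 0.0766, drawn down because each member is part of that mean. Of the 11157 nuclear genes compared, 194 lay no farther than the upper end of that range. They include Gm28439 at 0.0718 and Atp6-ps at 0.0751, rows of nuclear copies. The profiles contain the genotype difference for which the members were chosen, so a gene with a similar change between genotypes lies near them.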

How the data were processed

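RNA from 4 wild-type and 4 Iqch mutant testes was extracted as total RNA and made into libraries with a TruSeq RNA kit, and 7 libraries were used here. Whether poly(A) RNA was selected is not given in the sources used here. Reads were trimmed with Trimmomatic, mapped to GRCm39 with Subread and counted with featureCounts by the authors, who used edgeR and DESeq2 for their own calls. The authors deposited CPM, which sum to 1000000 in each library, for genes that passed a read minimum. Annotation release, strand setting and treatment of reads with several matches are not given in the sources used here. Because all values share 1 total, a gene's CPM depends on the other genes. Identifiers were matched to GENCODE vM39 (17045 of 17127).

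Groups came from the sample titles. Tests used limma 3.58.1 (trend) in R 4.3.3 on log2(CPM + 0.1), which understates changes of low genes, for the 17126 genes that reached 2.2 CPM in 2 or more libraries of a group, called at an FDR of 0.01. On simulated data 198 of 198 changed genes were recovered, with 1 unchanged gene called among 16916 tested. There, few genes changed, all by the same fold, in balance up and down, and with the same noise for every gene. In the measured data far more genes were called, and mostly higher in CPM. The simulation therefore checks the working of the test and not its error rate or power here. Nuclear copies were found with BLAST 2.17.0, in windows of 100 bases. Size is given as the mean and SD over libraries.

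The members and lists were chosen with earlier results of these data known. Named genes were the members, other rows of the mitochondrial chromosome and nuclear copies, Iqch, the 2 called genes with the largest change in each direction of each nuclear mitochondrial and RNA list, a set of mitochondrial regulators, and the 5 nuclear genes nearest in profile. Alternatives were other pseudocounts and minimums, median-of-ratios scaling, totals without the mitochondrial rows, the replicate number as a block, and leaving out each library.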

Additional observations from a re-analysis of the deposited data

Results flagged for a closer look

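Among 83 values of the wild type, 9 had 1 library standing far from the other 3 (Dixon's test at 95%), where chance alone flags about 1 in 20. Of the mitochondrial mRNAs, 2 were high in wild type 3, mt-Co1 at 3575 CPM against 3199.6 to 3249.8 in the other libraries and mt-Nd6 at 192 CPM against 153 to 157. In both cases each mutant library was higher still. The share of mt-Nd5 in the pool was low in wild type 2, at 7.29% against 7.97% to 8.04%, and that of mt-Co1 was low in wild type 1, at 45.2% against 46.4% to 46.6%. The tRNA row mt-Tc was low in wild type 1, at 4.25 CPM against 5.84 to 5.94. Of the nuclear genes, Atp5mg stood at 2.48 CPM in wild type 2 against 1.65 to 1.73, and Slirp at 26.4 CPM in wild type 3 against 22.5 to 23.0. Hsd17b10 stood at 10.8 CPM in wild type 4 against 9.37 to 9.55, and H2bc4 at 9.26 CPM in wild type 2 against 8.25 to 8.39. Groups of 3 libraries were not tested in this way.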

How the results depend on the processing

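Median-of-ratios scaling moved the results most. It took the log2 ratio of the summed members from 0.68 to 0.54 and the median of all genes from 0.12 to -0.01, and each of the 10 members kept a positive log2 fold change (0.41 to 0.60). It raised the genes called lower from 2428 to 4294 of all tested and took those called higher from 6212 to 4624, so that 51.9% of calls were higher where 71.9% had been. Of nuclear subunits 17 rose and 18 fell under it (34 and 5 as reported), and of transcription and RNA processing genes 9 rose and 3 fell (25 and 1). Leaving out 1 library at a time, the log2 ratio of the members' sum was 0.62 to 0.72. Nuclear subunits called higher were 26 to 32 and called lower 2 to 7, with 2 without mutant 2. Transcription and RNA processing genes called higher were 14 to 23, with 14 without mutant 2, and 1 was called lower each time. The cause of these shifts was not tested, though fewer libraries give the test less to work with. With the rows of nuclear copies added, an alternative chosen after the data were seen, the log2 ratio of the sum was 0.68. The shares of mt-Co1, mt-Nd4 and mt-Nd2 in the pool kept their direction in each alternative run. Replicate numbers did not pair the libraries (correlations of same-numbered deviations 0.03, 0.01 and -0.10). With them as a replicate block over the 3 numbers both groups hold, which drops wild type 3, 5579 genes were called higher and 2126 lower, nuclear subunits 26 and 6, and transcription and RNA processing genes 17 and 1. Of 626 refits of named nuclear genes, 41 lost the call, 1 gained it (Slirp) and no called change reversed. Among genes not called, the sign turned for Polrmt, Tefm and Mtpap under median-of-ratios scaling, and for Ppargc1a under the replicate block and without wild type 3, wild type 4 or mutant 4. Pnpt1, Cs, Atp5mg, Cycs, Ndufa7, Cyct, Uqcrq, Lrpprc, Supv3l1, Gabpa and Mrm2 were among those that lost it. Count tests on the whole reads behind the CPM steps were planned and not run, because the table keeps too few values near 1 read to check the steps there.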

Other observations

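The nuclear mitochondrial genes with the largest increases were often X-linked, a pattern noticed after the values were seen and given without a test. The respiratory chain and mitochondrial lists hold 199 tested genes when the germ cell list is left out, though Cyct and Cox8c stay among them. Of these, 6 lie on the X chromosome, and 6 of the 6 were called higher by limma. The same call was made for 51.2% of all 625 tested X-linked genes and 35.8% of 16401 genes on other nuclear chromosomes. The median log2 fold change of the 6 was 1.24, against 0.20 for the other 193, and against 0.35 for all tested X-linked genes. The 6 are Cox7b, Pdha1, Ndufb11, Hsd17b10 and Ndufa1, described above, and Slc25a5, an exchanger of ADP and ATP across the inner membrane. Slc25a5 went from 30.2 ± 1.97 to 63.8 ± 3.01 CPM (log2 1.08, SE 0.06). Of the 10 largest increases in these lists 5 were X-linked, the others being Vdac1, Ndufa4, Cox8a, Phb1 and Hspd1. Each of the 6 had a larger log2 fold change than the 10 mitochondrial mRNAs, whose highest was 0.74. X-linked genes are known to be silenced in meiotic germ cells and to stay low afterwards, and the germ cell and somatic markers moved as given above, but the part of either in this pattern was not tested.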
